A study of Pomacea canaliculata with 12 samples.

Results

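In the apple snail Pomacea canaliculata, 47 of the 21131 genes in the count table were concentrated in the retina. They were chosen on their measured levels. Each had a level of at least 5 CPM (a gene's counts scaled to the library's total and its TMM factor, which corrects for library makeup) in each of the 3 retina libraries, and a retina mean at least 8 times the mean of eye stalk, of cephalic tentacle and of oral tentacle. The levels, ratios and retina differences of these genes are therefore descriptions and carry no test. Poly(A) RNA was sequenced from extracted retinas, amputated eye stalks, cephalic tentacles and oral tentacles, with 3 libraries of each. The labels give no strain, age, sex or treatment for any group, and they do not say whether a library holds 1 animal or several, or whether an eye stalk sample included the eye. The p-values therefore rest on how far the libraries of a tissue differ, and part of that spread may be technical.

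The apple snail has a camera-type eye, in which a single lens throws an image on a cup-shaped retina, and the study's title presents it as a system for regeneration of the whole eye. In gastropods the retina holds photoreceptors that carry opsins on microvilli, pigmented supporting cells that screen stray light, and nerve fibres that leave in the optic nerve. The eye sits at the tip of a short stalk beside the cephalic tentacle, and the tentacles serve touch and chemical sense. The genes carry LOC identifiers only, and the sources used here pair none of them with a product, so no gene is given a role and known retina markers could not be looked up to check the tissue labels. The genes are ordered below by level and by where else they were measured.

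The retina libraries held 40794864 to 45673871 counts and the other 9 libraries 10804847 to 21561988, so 1 count stood for at most 0.0315 CPM in retina and for up to 0.0844 CPM elsewhere. The TMM factor of a retina library was 0.762 to 0.799, and that of any other library 1.03 to 1.13. Retina replicate 4 stood apart from replicates 1 and 3 in several of the most abundant genes, and eye stalk replicate 3 from replicates 1 and 2. The numbers of genes that left the choice without either library are given below. Ratios without retina replicate 4 are given for some of the genes. All 47 genes passed the filter on low counts. In the 9 libraries outside the retina 39 of them passed it. The other 8 passed only through the retina libraries, in which they were chosen to be high.

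Levels in retina covered a wide range. The retina mean was 1000 CPM or more for 8 genes, between 100 and 1000 CPM for 7, between 10 and 100 CPM for 26 and under 10 CPM for 6, with a median of 48.0 CPM. The ratio of the retina mean to the highest other tissue mean had a median of 11.9 and reached 108. It lay between 8 and 10 for 18 genes, between 10 and 16 for 18, and at 16 or more for 11. The highest other tissue was eye stalk for 42 genes, cephalic tentacle for 3 and oral tentacle for 2. In 46 of the 47 genes all 3 retina libraries lay above the other 9, against 19.5% of all genes tested, a count that the choice of the genes largely fixes.

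**Figure D1:**
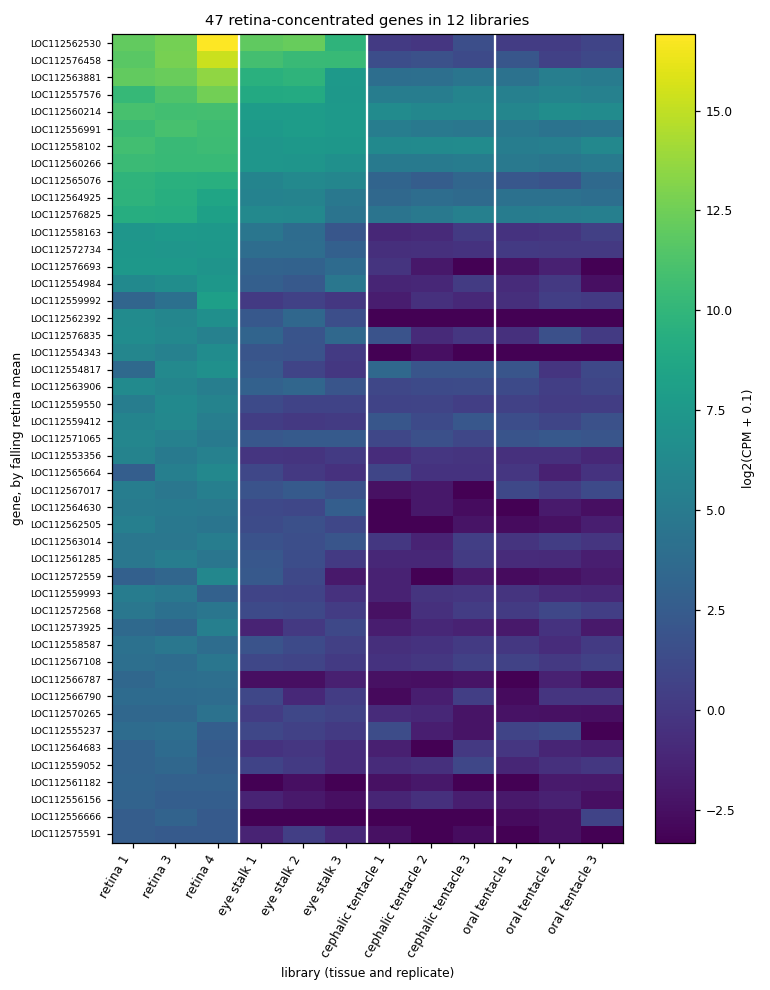
Level of each of the 47 genes (rows, by falling retina mean) in each of the 12 libraries (columns), as log2(CPM + 0.1). The retina columns are brightest in nearly every row, the 4 top rows are brightest in retina replicate 4, and in 42 rows eye stalk has the next highest mean.

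The 47 genes together took 1.84%, 2.48% and 14.4% of all counts in retina replicates 1, 3 and 4, against 0.867%, 0.890% and 0.362% in eye stalk replicates 1, 2 and 3. In cephalic tentacle they took 0.0408 ± 0.00232% and in oral tentacle 0.0403 ± 0.00438% (SD, n = 3 each). The retina mean of 6.25 ± 7.09% (SD, n = 3) was set by replicate 4, and without it the mean was 2.16%. The 4 most abundant genes held 55.1%, 67.6% and 94.9% of these counts in retina replicates 1, 3 and 4, and 15.4% to 26.5% in the tentacle libraries.

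The most abundant of the genes was also the least even. In retina replicates 1, 3 and 4, LOC112562530 stood at 4308, 6397 and 122558 CPM, against 4041, 4767 and 916 CPM for eye stalk replicates 1, 2 and 3. In the tentacles it had 0.993, 0.814 and 2.79 CPM (cephalic replicates 1, 2 and 3) and 1.08, 1.10 and 1.71 CPM (oral replicates 1, 2 and 3). Retina replicate 4 lay far above every other library, retina replicates 1 and 3 were close to eye stalk replicates 1 and 2, and no tentacle library exceeded 3 CPM. It was the only gene of the 47 whose retina and other libraries overlapped, since retina replicate 1 lay below eye stalk replicate 2. Its retina mean was 13.7 times the eye stalk mean with all libraries and 1.65 times without retina replicate 4, so that it was then no longer among the chosen genes.

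Next in level was LOC112576458. The same retina libraries held 3434, 6882 and 39161 CPM of it, the eye stalk libraries 1896, 1343 and 1298 CPM, and the 6 tentacle libraries 1.44 to 4.17 CPM. Its eye stalk libraries were close to each other, and its groups did not overlap. For LOC112563881 the retina libraries stood at 4145, 5055 and 11837 CPM, the eye stalk libraries at 727, 893 and 187 CPM, and the tentacle libraries between 15.97 and 40.02 CPM. The fourth gene, LOC112557576, had 1174, 2613 and 6079 CPM in these retina libraries, 505, 522 and 178 CPM in these eye stalk libraries, and 37.4 to 56.2 CPM in the tentacles. Retina replicate 4 was the highest library for all 4 genes, and eye stalk replicate 3 was the lowest eye stalk library. Without retina replicate 4 the ratio of the retina mean to the eye stalk mean was 3.41 for LOC112576458, 7.63 for LOC112563881 and 4.71 for LOC112557576, all under 8.

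The next 6 genes by level spread less across the retina libraries, with coefficients of variation (SD divided by mean) of 7.96% to 37.6%, against 59.9% to 152% for the first 4. LOC112560214 was measured at 2102, 1756 and 1905 CPM in retina replicates 1, 3 and 4, against 237, 234 and 186 CPM for eye stalk replicates 1, 2 and 3 and 63.8 to 94.7 CPM in the tentacles. LOC112556991 had 1410.3, 2129.6 and 1597 CPM in retina, 192, 237 and 188 CPM in eye stalk and 20.4 to 37.8 CPM in the tentacles, in the same order of replicates. LOC112558102 had 1744, 1366 and 1461 CPM in retina, 158, 176 and 166 CPM in eye stalk and 37.2 to 87.6 CPM in the tentacles. In these genes the lowest retina library was 7.41, 5.96 and 7.75 times the highest library of any other tissue. LOC112560266 had 1445, 1246 and 1285 CPM in retina, 155, 149 and 115 CPM in eye stalk and 24.6 to 36.1 CPM in the tentacles, and LOC112565076 had 908, 742 and 690.3 CPM, 55.7, 73.6 and 63.1 CPM, and 3.46 to 12.2 CPM. LOC112564925 was the least even of the 6 and lowest in retina replicate 4, with 857, 672 and 382 CPM in retina, 49.3, 53.9 and 27.9 CPM in eye stalk and 11.1 to 18.6 CPM in the tentacles. Of these 6 genes, LOC112556991 fell outside the choice when retina replicate 3 or eye stalk replicate 3 was left out, and the other 5 stayed in without any single library.

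Spread between retina libraries differed greatly among the 47 genes. The coefficient of variation over the 3 libraries had a median of 27.6%, was under 10% for 6 genes and over 50% for 10. LOC112572734 was the most even, with 169.6, 159 and 167 CPM in retina replicates 1, 3 and 4 and a coefficient of 3.22%, against 15.0, 15.1 and 7.18 CPM in eye stalk and 0.579 to 0.978 CPM in the tentacles. LOC112566790 had 13.4, 13.3 and 14.4 CPM in retina (4.29%), 1.93, 0.408 and 1.12 CPM in eye stalk and 0.0414 to 1.28 CPM in the tentacles. LOC112558163 had 157, 183 and 174 CPM in retina (7.58%), 24.9, 14.0 and 4.15 CPM in eye stalk and 0.372 to 1.32 CPM in the tentacles.

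Replicate 4 was the retina library that most often departed from the others. It was at least 2-fold above both other retina libraries in 7 of the 47 genes, and at least 2-fold below both in 3. Over the 10199 tested genes with at least 5 CPM in each retina library, the same departures were seen in 4.12% and 2.31%. The choice of the genes used the retina mean, which a high value in any retina library raises. The counts for the 47 genes are therefore not independent of the choice. Why replicate 4 departed most often was not tested. Without retina replicate 4, 10 of the 47 were lost. The 7 genes high in replicate 4 were the 4 most abundant ones with LOC112559992, LOC112572559 and LOC112573925. For LOC112572559, retina replicates 1, 3 and 4 held 7.06, 10.2 and 65.0 CPM, against 4.94, 2.04 and 0.160 CPM for eye stalk replicates 1, 2 and 3 and at most 0.290 CPM in the tentacles. LOC112573925 had 11.9, 9.52 and 41.7 CPM in retina, against 0.309, 0.898 and 1.996 CPM in eye stalk and at most 0.675 CPM in the tentacles. The 3 genes low in replicate 4 were LOC112559993, LOC112576825 and LOC112555237. Replicate 1 was at least 2-fold below both others in 4 genes and replicate 3 in 0. In retina replicates 1, 3 and 4 LOC112565664 held 6.40, 42.5 and 69.2 CPM and LOC112554817 12.1, 73.1 and 113 CPM, so that in both genes replicate 1 lay about 6-fold below the next library. Outside the retina LOC112565664 was at most 1.85 CPM in eye stalk and 1.82 CPM in the tentacles. LOC112554817 reached 4.94 CPM in eye stalk and 11.5 CPM in cephalic replicate 1, only just under its lowest retina library.

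**Figure D2:**
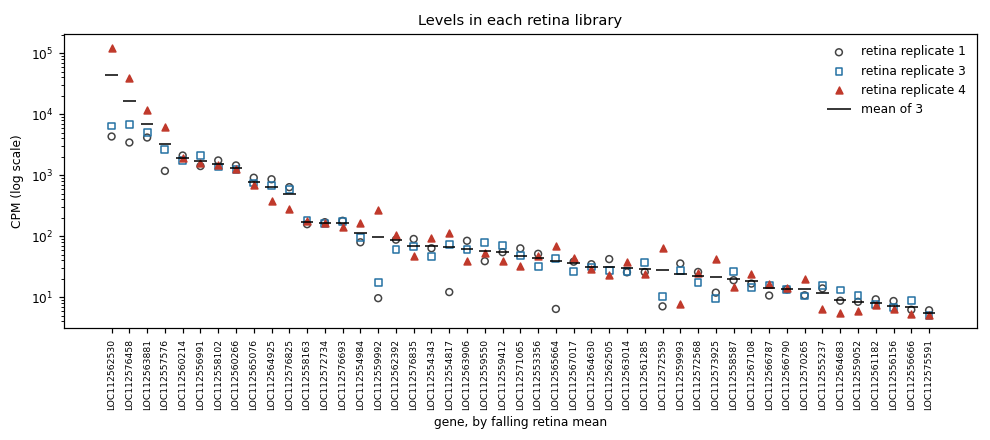
CPM (log axis) of the 47 genes in each retina library, with open circles for replicate 1, open squares for replicate 3, filled triangles for replicate 4 and a bar for the mean of the 3. Replicate 4 lies highest in the 4 most abundant genes, while LOC112560214 to LOC112565076 have 3 points close to each other.

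The highest ratios belonged to genes that were low outside the retina. The retina libraries of LOC112566787 held 10.6, 15.8 and 16.5 CPM, against 0.0772, 0.0816 and 0.239 CPM for the eye stalk libraries, which rest on 5 counts in all, and at most 0.253 CPM in the tentacles. Its retina mean was 108 times the highest other tissue mean, that of eye stalk, the largest such ratio of the 47. The second highest ratio, 90.5, was that of LOC112559992, which had 9.62, 17.2 and 269 CPM in retina and at most 1.39 CPM in eye stalk and 1.27 CPM in the tentacles. It rested on retina replicate 4, without which it was 12.3. LOC112553356 had 51.4, 31.5 and 46.9 CPM in retina, 0.772, 0.734 and 0.958 CPM in eye stalk and 0.388 to 0.814 CPM in the tentacles, a ratio to the highest other tissue mean of 52.6. LOC112559550 had 38.9, 77.8 and 53.6 CPM in retina, 2.24, 1.55 and 1.597 CPM in eye stalk and 1.10 to 1.63 CPM in the tentacles, a ratio of 31.6. In both genes eye stalk and tentacles were close to each other. LOC112561182 had 9.21, 7.66 and 7.53 CPM in retina, 1 count in all of eye stalk and 8 counts over the 6 tentacle libraries. Its retina mean was 75.3 times the highest other tissue mean, and its retina to eye stalk ratio from summed counts, scaled to library size, was 306 (Poisson 95% interval 54.7 to 12095, counting error only). LOC112556666 had a ratio to the highest other tissue mean of only 12.1, set by 1 oral library. It had 6.21, 8.80 and 5.34 CPM in retina and 0 counts in all eye stalk and cephalic tentacle libraries. Against the 3 counts that a total of 0 allows over a tissue's libraries, retina was at least 85.2-fold higher than eye stalk and at least 125-fold higher than cephalic tentacle. Oral replicate 3 held 1.55 CPM of this gene and the other oral libraries at most 0.0844 CPM. LOC112556156 had 8.64, 6.67 and 6.46 CPM in retina, at most 0.309 CPM in eye stalk and at most 0.592 CPM in the tentacles.

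Eye stalk was compared with both tentacle types, since no retina level enters this contrast and the choice of genes only sets a ceiling on each of these tissues. In the fit of all libraries, retina still enters the filter, the TMM factors and the estimate of each gene's spread, and so the p-values. Most of the retina-concentrated genes were called higher in eye stalk, as compared with tentacle. Of the 47 genes, 27 were called higher and 1 lower in eye stalk (edgeR quasi-likelihood test, adjusted p under 0.05 over all 16811 genes tested), and 19 were not called. Over all genes tested, 13.4% were called higher and 13.1% lower. In a fit of the 9 libraries outside the retina, 39 of the 47 genes passed the filter on low counts, so the other 8 were tested only because of their retina counts. Of those 39, 25 were called higher and 1 lower in eye stalk, where 15.1% and 16.8% of the 16466 genes in that fit were. Among the 8, LOC112572559 and LOC112575591 were called higher in the fit of all libraries. The median log2 fold change was 1.81 for the 47 genes and 0.02 for all genes tested. All 3 eye stalk libraries lay above all 6 tentacle libraries in 25 of the 47 genes, against 15.8% of all genes tested, and below all 6 in 1, against 15.9%. In bulk tissue, fewer cells of a type and less RNA per cell cannot be told apart. Whether retina tissue was part of the eye stalk samples was not tested.

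Of the 15 genes with a retina mean of 100 CPM or more, 14 were called higher in eye stalk, where 28.9% of all tested genes at that level were. Of the 32 genes below that level 13 were, where 10.7% of all tested genes were. The retina mean used for this split was also used to choose the genes. All 8 genes tested only because of their retina counts lay below that level. Of these, 2 are among the 13 and the rest are among the 19 genes not called. Among the 28 called genes the median log2 fold change was 3.28 and the median count summed over eye stalk libraries 341.5. Among the 19 genes not called these medians were 0.46 and 43.

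The largest fitted change among genes with counts in every library was that of LOC112562530, whose 11.18 ± 1.22 log2 units (SE, edgeR adjusted p = 0.00016) set 916 to 4767 CPM in eye stalk against 0.814 to 2.79 CPM in the tentacles. DESeq2 gave no p-value for this gene. LOC112576458 was higher by 9.17 ± 0.75 log2 units (SE, edgeR adjusted p = 2.7e-05). LOC112562392 stood at 87.6, 61.3 and 106 CPM in the retina libraries and 4.56, 10.7 and 2.87 CPM in those of eye stalk, with 0 counts in all 6 tentacle libraries. Its eye stalk level was at least 199-fold higher than the 3 counts that 0 allows over the tentacle libraries (edgeR adjusted p = 0.00043). LOC112554343 stood at 63.4, 46.2 and 93.7 CPM in the retina libraries and 3.94, 3.59 and 0.958 CPM in those of eye stalk. The tentacle libraries held a single count of it, which puts the eye stalk level at 283 times theirs (Poisson 95% interval 49.7 to 11273, counting error only; edgeR adjusted p = 0.00036). Both genes were at or near 0 in both tentacle types.

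LOC112564630 had 34.7, 31.3 and 29.5 CPM in retina, 2.16, 1.88 and 6.39 CPM in eye stalk and at most 0.169 CPM in the tentacles (log2 fold change of eye stalk over tentacles 5.62 ± 0.67, SE, edgeR adjusted p = 0.00026). LOC112576693 had 179, 176 and 140.5 CPM in retina, 8.57, 8.24 and 13.1 CPM in eye stalk and at most 0.745 CPM in the tentacles (5.61 ± 0.58, SE, edgeR adjusted p = 0.00011). In both, eye stalk and tentacle libraries did not overlap. LOC112560214, LOC112558102 and LOC112560266 were abundant, even in retina and had smaller fold changes. Their log2 fold changes of eye stalk over tentacles were 1.51 ± 0.16, 1.38 ± 0.17 and 2.19 ± 0.13 (SE, edgeR adjusted p = 0.00011, 0.00028 and 2.8e-06). Other genes even in retina had larger ones, such as 4.02 ± 0.22 for LOC112572734 and 4.28 ± 0.48 for LOC112558163 (SE, edgeR adjusted p = 2.1e-06 and 0.00018).

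LOC112559412 was the single gene called lower in eye stalk. It had 54.6, 69.9 and 39.9 CPM in retina. Eye stalk replicates 1, 2 and 3 held 1.16, 0.898 and 1.04 CPM, against 4.14, 2.29 and 4.47 CPM in cephalic and 2.63, 1.77 and 3.18 CPM in oral replicates 1, 2 and 3. The eye stalk libraries lay below all 6 tentacle libraries, and the log2 fold change was -1.55 ± 0.30 (SE, edgeR adjusted p = 0.0035).

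Among the genes not called, LOC112576825 was the only one with a retina mean of 100 CPM or more. It had 636, 582 and 282 CPM in retina, 71.9, 70.4 and 21.5 CPM in eye stalk and 22.0 to 45.4 CPM in the tentacles. Eye stalk replicates 1 and 2 lay above the tentacles and replicate 3 below all 6 of them (log2 fold change 0.64 ± 0.38, SE, edgeR adjusted p = 0.25), and without eye stalk replicate 3 the gene was called higher (1.02, edgeR adjusted p = 0.033). LOC112571065 was nearest to the threshold, with 4.32, 5.14 and 5.11 CPM in eye stalk and 1.84 to 4.64 CPM in the tentacles (0.68 ± 0.23, SE, edgeR adjusted p = 0.052). It was called higher without retina replicate 1 or 4 (edgeR adjusted p = 0.046 and 0.027), without cephalic replicate 2 (0.029) and with the replicate block (0.022). LOC112553356 and LOC112559550, both far higher in retina, had log2 fold changes of 0.45 ± 0.27 and 0.40 ± 0.25 between eye stalk and tentacles (SE, edgeR adjusted p = 0.29 and 0.27).

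Set against each tentacle type alone, 26 of the 47 genes were called higher in eye stalk than in cephalic tentacle, where 9.11% of all genes were, and 26 than in oral tentacle, where 10.7% of all genes were. In each comparison 1 gene was called lower, where 9.83% and 12.4% of all genes were. The 2 comparisons share the eye stalk libraries. In the fit of the 9 libraries outside the retina, 39 of the 47 genes were tested. Of these, 24 were called higher than in cephalic and 22 than in oral tentacle, where 10.7% and 12.3% of all genes were. In each, 1 was called lower, where 2125 and 2636 of the 16466 genes were.

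**Figure D3:**
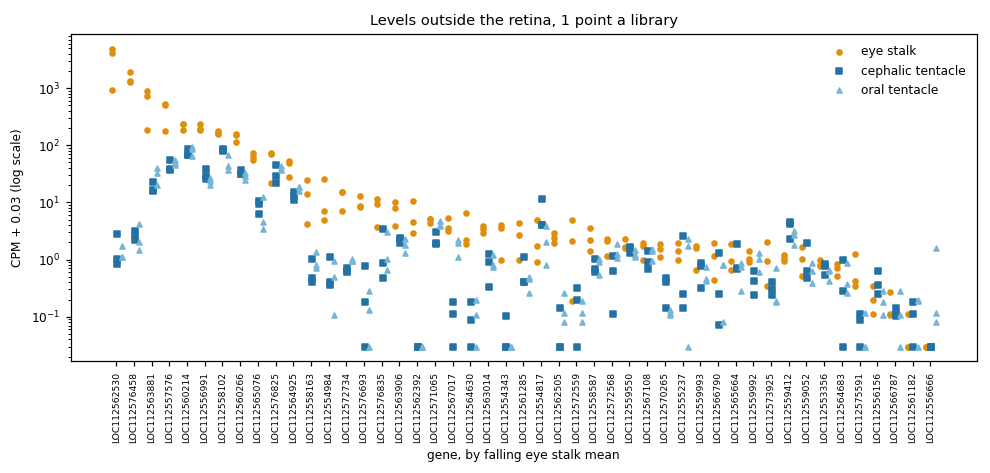
CPM + 0.03 (log axis) of the 47 genes in each library outside the retina, by falling eye stalk mean, with circles for eye stalk, squares for cephalic tentacle and triangles for oral tentacle; a point at 0.03 stands for 0 counts. In 25 genes the eye stalk points lie above all tentacle points, and LOC112559412 shows the opposite.

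As a share of the retina mean, the eye stalk level can reach at most an eighth by the choice of genes. Its median over the 47 genes was 9.02%, 9.04% and 5.27% in eye stalk replicates 1, 2 and 3, against 1.23% to 1.62% in the cephalic and 1.43% to 1.77% in the oral tentacle libraries. With the retina mean taken over replicates 1 and 3 only, these medians were 10.1%, 9.18% and 5.502% in eye stalk, 1.54% to 1.95% in cephalic and 1.51% to 1.83% in oral tentacle. By gene, the eye stalk mean ran from 0 to 12.4% of the retina mean.

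Eye stalk replicate 3 was often lower than its pair of fellow libraries. Of the 40 genes with an eye stalk mean of at least 1 CPM, 12 were in replicate 3 at least 2-fold below both other eye stalk libraries and 3 at least 2-fold above both. Over the 15484 tested genes at that level these departures were seen in 6.25% and 5.22%. The choice of the genes used the eye stalk mean, which a low value in any eye stalk library lowers. The counts for the chosen genes are therefore not independent of the choice. Why replicate 3 was low more often than the other eye stalk libraries was not tested. Without eye stalk replicate 3, 9 of the chosen genes were lost. For replicates 1 and 2, 1 and 2 of the 40 genes were at least 2-fold below both others. LOC112554984 went the other way, with 6.95, 4.98 and 25.9 CPM in eye stalk replicates 1, 2 and 3, against 79.4, 94.9 and 166 CPM in retina replicates 1, 3 and 4. Of the 7 genes that stood out high in retina replicate 4, 4 were at least 2-fold below the other eye stalk libraries in replicate 3, as were 8 of the other 33 genes with an eye stalk mean of at least 1 CPM.

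**Figure D4:**
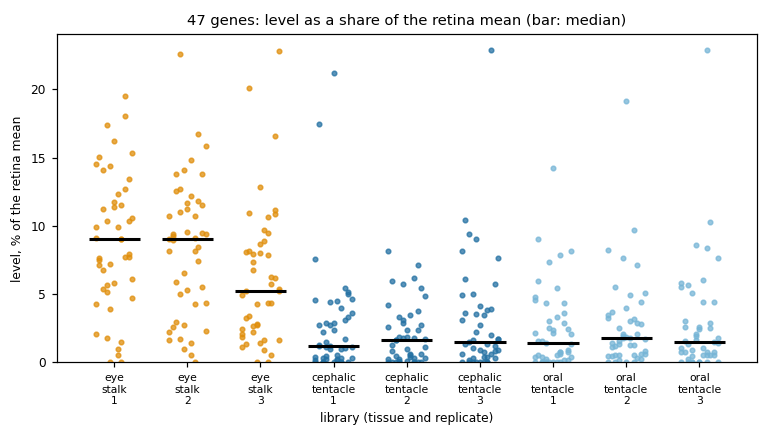
Level of each of the 47 genes as a percent of its retina mean in each library outside the retina, with 1 point a gene and a bar at the median. The medians are 9.02%, 9.04% and 5.27% in the eye stalk libraries and under 2% in every tentacle library.

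In the tentacles most of these genes were low. The mean over the 6 tentacle libraries was under 1 CPM for 28 genes, under 0.1 CPM for 7 of those, and 10 CPM or more for 8. Cephalic and oral tentacle were compared next. Between them 1 gene of the 47 was called (edgeR quasi-likelihood test, adjusted p under 0.05), lower in cephalic tentacle, where 0.19% of all genes were, and 0 were called higher, where 0.155% of all genes were. At an unadjusted p under 0.05 in edgeR, 2 genes were higher and 3 lower. The same count was not made over all genes, so these numbers are not a result about the 47. DESeq2 called 1 higher and 1 lower, where it called 194 higher and 176 lower among 21131 genes. The called gene, LOC112567017, had 0.0828, 0.148 and 0 CPM in cephalic replicates 1, 2 and 3, against 1.96, 1.10 and 2.17 CPM in oral replicates 1, 2 and 3, with 4 and 79 counts in all. The retina libraries held 38.1, 26.0 and 43.2 CPM of it and the eye stalk libraries 3.55, 5.30 and 3.19 CPM. Its log2 fold change of cephalic over oral tentacle was -4.51 ± 0.61 (SE, edgeR adjusted p = 0.012). Tentacle libraries of the same number tended to deviate from their tissue means in the same direction across genes. With the replicate number as a block the call was lost (edgeR adjusted p = 0.059 over all 12 libraries and 0.14 in the 6 tentacle libraries alone). It was also lost without cephalic replicate 1 (edgeR adjusted p = 0.083) and in a fit of the 9 libraries outside the retina (0.058), and over 20 alternatives the adjusted p ran from 4.4e-06 with DESeq2 to 0.14.

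Position in the genome was not used to choose the genes. All 47 were found in the RefSeq gene table of assembly ASM307304v1, on 13 linkage groups or scaffolds. The assembly behind the counts is not given in the sources used here, so only the order of genes is used. Of the 47 genes, 1 pair was adjacent, and 5 genes had another of the 47 within 3 places. These counts were not set against those of other genes, so they do not show that the genes lie together. In the adjacent pair, LOC112559993 stood at 35.7, 27.4 and 7.59 CPM in retina replicates 1, 3 and 4, whereas LOC112559992 stood at 9.62, 17.2 and 269 CPM. Replicate 4 was thus the lowest retina library for the one and the highest for the other. In eye stalk LOC112559993 had 1.70, 1.55 and 0.639 CPM and LOC112559992 had 1.004, 1.39 and 0.878 CPM, and in the tentacles neither exceeded 1.27 CPM. The abundant LOC112560214 lay 3 places from LOC112559992, and the 2 genes in between were not concentrated in retina: LOC112560263 averaged 14.0 CPM in retina and 32.3 CPM in oral tentacle, and LOC112558813 averaged 1.16 CPM in retina and 0.923 CPM in cephalic tentacle.

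**Figure D5:**
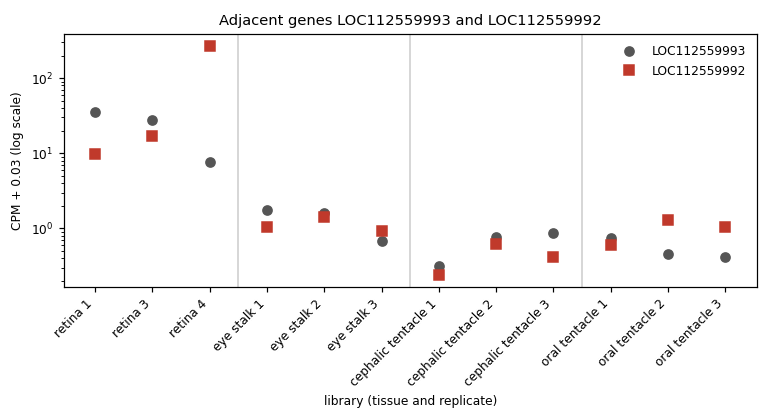
CPM + 0.03 (log axis) of the adjacent genes LOC112559993 (circles) and LOC112559992 (squares) in the 12 libraries. In retina replicates 1, 3 and 4 the circles stand at 35.7, 27.4 and 7.59 CPM and the squares at 9.62, 17.2 and 269 CPM, while outside the retina both stay under 2 CPM.

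LOC112566787 and LOC112566790 lay 2 places apart. The gene between them, LOC112566793, had 2.18, 2.58 and 2.59 CPM in retina replicates 1, 3 and 4, 0 counts in eye stalk and at most 0.0776 CPM in the tentacles. It missed the choice on the 5 CPM minimum, and its ratio of retina to the highest other mean was 94.6. That other mean, in oral tentacle, rests on a single count in oral replicate 3, so the ratio is not firm. All 3 neighbours were thus low outside the retina. Over the retina libraries the coefficient of variation was 22.4% for LOC112566787 and 4.29% for LOC112566790. The strand setting of the counting is not given in the sources used here, and whether neighbours shared reads was not tested. Of the 79 tested genes next to one of the 47 and not among them, 19 (24.1%) had a retina mean at least 2 times each other tissue mean, against 9.35% of the 16764 tested genes outside the 47.

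The threshold ran through a dense range of genes. Just inside the ratio of 8 were LOC112559052 at 8.09, LOC112557576 at 8.19 and LOC112556991 at 8.33, and just outside were LOC112562895 at 7.99, LOC112559240 at 7.96 and LOC112556989 at 7.89. A further 196 genes with at least 5 CPM in each retina library had ratios between 4 and 8. At the minimum of 5 CPM, LOC112575591, LOC112556666 and LOC112564683 were just inside, with lowest retina libraries of 5.08, 5.34 and 5.40 CPM, and LOC112573892, LOC112564438 and LOC112556346 just outside, at 4.999, 4.32 and 4.19 CPM. The last 2 were low in retina replicate 1 only: LOC112564438 had 4.32, 32.2 and 69.8 CPM and LOC112556346 had 4.19, 21.5 and 94.7 CPM in retina replicates 1, 3 and 4.

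Single libraries decided membership for 19 of the 47 genes, and 28 were chosen whichever of the 12 libraries was left out. Without retina replicate 4, 10 genes were lost, among them the 4 most abundant, and 13 others entered. Without retina replicate 1, 5 were lost and 22 entered. Without eye stalk replicate 3, 9 were lost, LOC112572559 again among them, and 4 entered. The 28 genes include LOC112560214, LOC112558102, LOC112560266, LOC112565076 and LOC112564925 among the abundant ones and LOC112566787, LOC112553356, LOC112561182 and LOC112559550 among those with the highest ratios.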

How the data were processed

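The deposited data are 1 table with the raw read count of each gene in each of 12 libraries, in whole numbers and not normalized by the authors. The unit was read from the values. The aligner named in the submitters' processing notes is STAR. Not given in the sources used here are its version, the counting tool, strand setting, build and annotation. Column names matched sample titles, which give tissue and replicate number.

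The 47 genes were chosen on CPM with TMM factors over all 21131 genes, and printed CPM are on that scale. Tests used edgeR 4.0.16 in R 4.3.3 (glmQLFit, robust, and glmQLFTest) on the counts, with filterByExpr at a minimum count of 10, which left 16811 genes, TMM factors over those, and 1 fit of all 12 libraries with tissue as the only term (8 residual degrees of freedom). Calls were made at an adjusted p under 0.05 (Benjamini-Hochberg, across the whole table of tested genes). Standard errors come from the fold change and its F value. The level in both tentacles is the mean of cephalic and oral coefficients. On simulated data for eye stalk against both tentacles (16533 genes tested), 69 of 100 genes changed 4-fold and 81 of 100 changed 8-fold were recovered, with 4 false calls. The changed genes were drawn only from those with higher expected counts, so recovery at low counts was not measured. Poisson 95% intervals and the floor of 3 counts per group cover counting error only.

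Alternatives were RLE scaling, equal total counts, no filter, DESeq2 1.42.0, the 9 libraries outside the retina, a replicate block and each library left out. Every pair of libraries from 1 tissue differed by more than sampling noise (chi-square per degree of freedom from 34.0 to 665.9, using genes with 20 or more counts summed over both). The sample titles do not say what libraries of the same number share. Deviations from tissue means were correlated across genes between cephalic and oral tentacle (r = 0.38, 0.29 and 0.53 for numbers 1, 2 and 3). Between eye stalk and cephalic tentacle r was -0.32, 0.03 and -0.38. Whether libraries were paired was not tested. Retina has numbers 1, 3 and 4.

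The genes named are the 10 highest in retina, the 10 highest ratios, up to 6 called genes in each direction, the 3 most and least even in retina, those next to a threshold and neighbours. The members, lists and rules were chosen with earlier results of these data known, and LOC112576825, LOC112554817, LOC112571065, LOC112554984, LOC112572559, LOC112555237 and the genes between neighbours were named after their values were seen. Product-based marker lists, protein families and promoter features were not run, because no descriptions or sequences were used here.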

Additional observations from a re-analysis of the deposited data

How the results depend on the processing

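The number of genes chosen depended on the threshold and the scaling. It was 24 with equal total counts, all among the 47, 243 at a ratio of 4, 11 at a ratio of 16, and 11 when the lowest retina library had to be 8 times the highest other library. It was 44 with RLE scaling and 60, all 47 included, with TMM factors over filtered genes, and 42 to 64 with single libraries left out. The share of counts held by the genes ran from 2.16% to 8.45% in retina, 0.614% to 0.878% in eye stalk, 0.0399% to 0.0421% in cephalic and 0.0383% to 0.0426% in oral tentacle with single libraries left out, and without the most abundant gene was 2.85% in retina and 0.368% in eye stalk.

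Between eye stalk and both tentacles, 25 to 29 of the genes were called higher under other scalings, filters, tools and the replicate block (29 with the block), and 24 to 28 with single libraries left out. 25 of the 28 calls held in every alternative that gave a value (DESeq2 gave none for LOC112562530, and 39 of the 47 genes were tested in the 9 libraries outside the retina), while LOC112576835, LOC112572559 and LOC112558587 were lost without eye stalk replicate 1 (adjusted p = 0.054, 0.099 and 0.056 with edgeR), the first also without replicate 3 (0.058). The sign of 3 genes that were not called turned: the log2 fold change of LOC112565664 ran from -0.065 (without eye stalk replicate 1) to 0.82 with single libraries left out, that of LOC112559052 from -0.052 (without eye stalk replicate 1) to 0.88, and that of LOC112566787 from -0.21 (without eye stalk replicate 3, also with retina replicate 4 left out) to 1.20. Against single tentacle types, 23 to 28 and 22 to 26 genes were called higher with single libraries left out. DESeq2 called 2 lower than in oral tentacle, and 0 to 1 were with single libraries left out. Between cephalic and oral tentacle, 0 or 1 gene was called higher and 0 or 1 lower with single libraries left out. DESeq2 called 1 higher, and 0 were called lower with the replicate block over all libraries, with the block in the 6 tentacle libraries, or in the 9 libraries outside the retina. Within 3 places, 5 genes had a neighbour among the 47, against 2 when adjacent.

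Over all genes tested, counts of calls in the alternatives ran from 1512 to 2702 higher and 1475 to 2901 lower in eye stalk than in both tentacles, 837 to 1900 and 1139 to 2318 against cephalic, 1195 to 2280 and 1359 to 2666 against oral tentacle, and 9 to 194 higher and 9 to 176 lower in cephalic than in oral tentacle. With equal total counts 1189 genes were higher and 1933 lower in eye stalk than in cephalic tentacle, against 1531 and 1653. The block within the tentacles, TMM over filtered genes, the retina mean of 2 libraries and leaving out 2 libraries together were chosen after seeing the data. Causes were not tested. Depth limits what can be said of the 7 genes under 0.1 CPM in the tentacles.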
